A study of Ictidomys tridecemlineatus with 31 samples.

Results

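Autophagy and lysosome genes were followed across hibernation in the kidney of the 13-lined ground squirrel (*Ictidomys tridecemlineatus*). Members were taken by gene symbol. They are the listed genes whose symbol begins with ATG and a digit, ULK, GABARAP, MAP1LC3, WIPI, BECN1, SQSTM1 or LAMP, the transcription factors TFEB and TFE3, and the cathepsins with a symbol of CTS and a letter. The rule found 42 genes of the 12863 in the table, with one row kept per symbol, that of the higher mean. Atg12 was the only symbol with more than one row. All 42 symbols are also in the RefSeq gene table of the species.

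Kidney RNA-Seq values were used from 31 animals, of both sexes, in 6 physiological states that were assigned from the season and from body temperature telemetry. The paper also sequenced K136, a summer active animal that it excluded after finding signs of immune activation and fibrosis. That animal is absent from these values. The active part of the year was represented by summer active animals (SA, 5 animals, fattening in August) and by spring dark animals (SpD, 5 animals, warm for days after their last torpor bout but still in the dark hibernaculum). The 4 hibernation states were interbout aroused (IBA, 5 animals, within hours of rewarming), entrance into torpor (Ent, 5 animals, cooling), arousing (EAr, 5 animals, beginning to rewarm from deep torpor) and later arousing (LAr, 6 animals, further along in rewarming). All animals carried an implanted temperature device, the labels name no other treatment, and each animal gave a single kidney sample at a single state. Libraries were made from polyadenylated RNA in 2 experiments with different kits. Of the 31 animals, experiment 1 held 9, of IBA, Ent and SpD, and experiment 2 held 22, so SA, EAr and LAr exist only in experiment 2.

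Values are batch-corrected rlog, a log2-scale expression level from which the mean difference between the experiments had been removed. A difference of 1 is a doubling. The scale is not corrected for gene length, so levels are compared between animals for one gene and never between genes. Read depth cannot be recovered from these values, and precision is given by the spread between animals. K113 (LAr) and K137 (SA) stood apart from their groups and are described separately. Every test used the other 29 animals, which leaves 4 in SA and 5 in each other state. The test was limma with terms for state, sex and experiment. Differences between states come from this model, except those within one experiment, and can depart from the differences of the printed means. q is the p-value after Benjamini-Hochberg adjustment over all 12863 genes within one comparison, and a gene was called differentially expressed (DE) at q under 0.001. Only DE genes are said to rise or fall. Genes of q under 0.05 are counted apart. The markers of proximal tubule, the cell type that makes up most of the kidney cortex, varied between animals. Their mean over 4 genes (Cubn, Lrp2, Slc27a2, Slc34a1) ran from 14.04 in K130 to 15.80 in K9, both SpD, over the 29 animals.

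In macroautophagy, a double membrane closes around cytoplasm, damaged organelles or protein aggregates, and the resulting autophagosome fuses with a lysosome, where hydrolases such as the cathepsins digest the cargo. The ULK kinase complex starts the process, the Beclin 1 lipid kinase complex and WIPI proteins mark the membrane, ATG9 and ATG2 supply lipid, and a pair of ubiquitin-like conjugation systems attach ATG8 proteins (the LC3 and GABARAP families) to it. Receptors such as p62, the product of Sqstm1, link cargo to ATG8, and TFEB and TFE3 are transcription factors that switch on autophagy and lysosome genes. In the kidney, proximal tubule cells take up filtered protein and degrade it in abundant lysosomes, and autophagy in these cells is known from work on ischemic injury. RNA levels do not measure autophagic flux.

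Most members differed little between states, and a small number moved in sharply different ways. Sqstm1 was high in IBA alone, where all 5 animals exceeded all 24 others in the fit, and its level fell by 0.62 on the log2 scale from IBA to Ent. Ulk4, a ULK family member, showed the opposite picture and rose by 0.43 from IBA to Ent. Ctso, which encodes cathepsin O, fell by 0.46 between the active and the hibernation states. Ctsc, which encodes cathepsin C, fell by 0.92 from SA to IBA. The ATG8 genes had the flattest profiles of any role, with state means that spanned 0.08 to 0.15.

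Across all 6 states, the F test called 3 of 42 members (Ctso, Ulk4 and Sqstm1), or 7.14%, beside 9.34% of all genes. With q under 0.05 it counted 18 members, or 42.9%, beside 46.1% of all genes. Both shares were near the background. The spread of the 6 state means, highest minus lowest, had a median of 0.29 over the members and 0.32 over all genes. It was above 1 for Ctsv alone, or 2.38% of members, and for 4.60% of all genes. The highest state mean fell in IBA for 13 members (31%) and for 20.5% of all genes. The lowest state mean fell in SA for 11 members (26.2%), beside 25.7% of all genes, and in IBA for 9 members (21.4%), beside 19.6%.

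**Figure D1:**
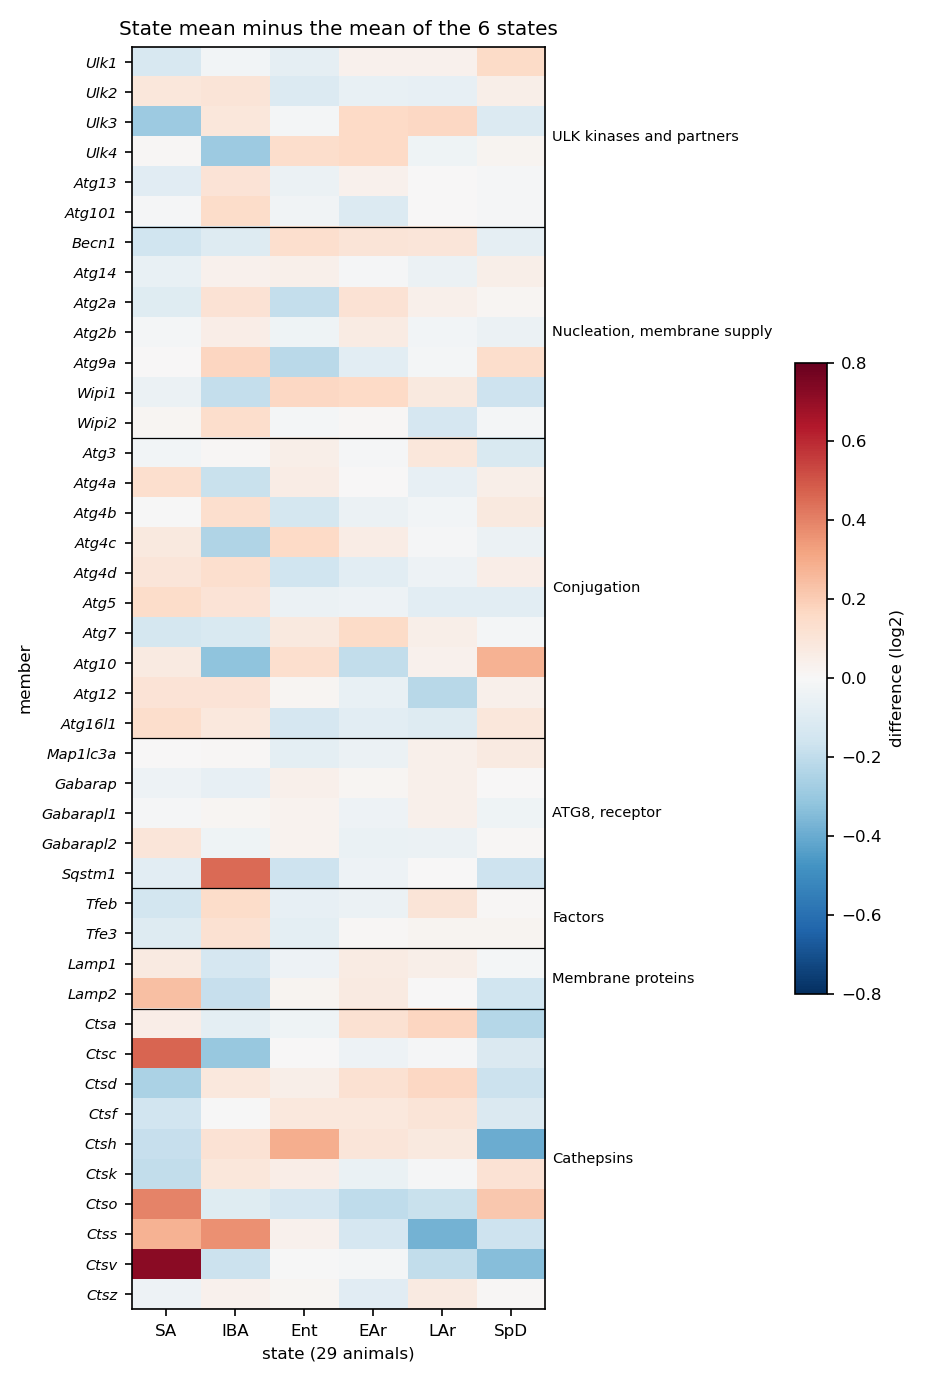
Each cell gives the mean of one member (rows, by role) in one state (columns; 29 animals, 4 in SA and 5 in each other state) minus the mean of its 6 state means, on the log2 scale, red above and blue below. Sqstm1 is red in IBA alone, Ctso is red in SA and SpD, Ctsc and Ctsv are reddest in SA, and the ATG8 genes are nearly white throughout.

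Among the ULK kinase genes and their partners, Ulk4 and Ulk3 passed the DE threshold. Ulk4 (gene1564 in the table) encodes a relative of ULK1 that is regarded as a pseudokinase. Its values were 8.17, 8.23, 8.29 and 8.36 in SA and 8.08, 8.20, 8.33, 8.34 and 8.43 in SpD. They were 7.90, 7.95, 7.96, 7.99 and 8.04 in IBA and 8.35, 8.37, 8.42, 8.42 and 8.44 in Ent. EAr animals stood at 8.38, 8.39, 8.41, 8.45 and 8.45, and LAr animals at 7.97, 8.22, 8.28, 8.29 and 8.36. Every IBA animal was thus below every animal of SA, SpD, Ent and EAr, and a single LAr animal, K109, reached the IBA range. The mean was 7.97 ± 0.05 (SD, n = 5) in IBA and 8.40 ± 0.04 (SD, n = 5) in Ent. Ulk4 differed across states at q = 8.54e-05 and rose from IBA to Ent by 0.43 (SE 0.064, q = 0.000264). The IBA/SA difference (-0.36, q = 0.00187), the IBA/LAr difference (-0.32, q = 0.00472) and the SpD/IBA difference (0.31, q = 0.00263), each the first state minus the second, had q under 0.05 and were not DE. Within experiment 1 the Ent minus IBA difference was 0.46 (n = 3 and 3) and within experiment 2 it was 0.39 (n = 2 and 2). The Ent/IBA call was lost when K1, K4 or K167 was left out (q up to 0.00152) and in experiment 2 alone (q = 0.132). The difference was 0.38 to 0.47 over the settings tried. The F test call was also lost in experiment 2 alone (q = 0.0137).

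Ulk3 (gene1061), whose product is a ULK1 relative described in autophagy and Hedgehog signaling, was higher in hibernation. Its values were 9.47, 9.59, 9.70 and 9.93 in SA and 9.61, 9.74, 9.86, 10.03 and 10.05 in SpD. In hibernation they were 9.95, 9.96, 9.99, 10.17 and 10.22 in IBA and 9.76, 9.86, 9.98, 10.07 and 10.10 in Ent. They were 9.88, 10.13, 10.17, 10.22 and 10.23 in EAr and 9.92, 10.05, 10.21, 10.23 and 10.24 in LAr. The ranges of SpD and the hibernation states overlapped, while every IBA animal was above every SA animal. The winter/active difference, the mean of the 4 hibernation states minus the mean of SA and SpD, was 0.30 (SE 0.063, q = 0.00078). This call was close to the threshold and was lost in 20 of the 29 fits that left out one animal, with q up to 0.00337. It was also lost with all 31 animals and with animal weights (q up to 0.00367). Of the others in this group, Ulk1, the central kinase, Ulk2, and the partners Atg13 and Atg101 had F test q of 0.0829 to 0.42. Atg13 had a higher value in IBA than in SA by 0.21 (q = 0.0467).

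At the step of membrane nucleation and supply, no member was DE. By state mean, IBA and Ent were the extremes for Wipi1, Atg9a and Atg2a. For Atg9a and Atg2a, K8 was far below the other Ent animals. Wipi1 encodes a protein that binds the phosphoinositide of the forming membrane. Its values were 10.90, 10.98, 11.10 and 11.22 in SA and 10.68, 10.70, 11.04, 11.08 and 11.15 in SpD. They were 10.74, 10.82, 10.98, 11.00 and 11.00 in IBA and 11.15, 11.24, 11.25, 11.28 and 11.41 in Ent. EAr animals had 11.14, 11.23, 11.25, 11.28 and 11.37, and LAr animals 11.06, 11.13, 11.16, 11.22 and 11.32. The IBA range did not overlap those of Ent, EAr and LAr. Wipi1 had an Ent/IBA difference of 0.36 (SE 0.080, q = 0.00627) and an IBA/LAr difference of -0.34 (q = 0.0128).

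Becn1 encodes Beclin 1, the scaffold of the lipid kinase complex. Its values were 11.07, 11.16, 11.18 and 11.21 in SA and 11.14, 11.15, 11.24, 11.28 and 11.41 in SpD. They were 10.96, 11.19, 11.23, 11.31 and 11.35 in IBA and 11.34, 11.39, 11.40, 11.54 and 11.56 in Ent. They were 11.30, 11.38, 11.43, 11.47 and 11.50 in EAr and 11.27, 11.41, 11.42, 11.45 and 11.49 in LAr. All animals of Ent, EAr and LAr, the 3 states of lowered body temperature, were above all SA animals, and SpD and IBA overlapped both. The winter/active difference was 0.17 (SE 0.044, q = 0.00491) and the Ent/IBA difference was 0.23 (q = 0.028).

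Atg9a encodes the transmembrane protein of the vesicles that seed the autophagosome. Its values were 10.77, 10.79, 10.85 and 10.87 in SA and 10.89, 10.91, 10.94, 10.99 and 11.05 in SpD. They were 10.78, 10.98, 11.00, 11.04 and 11.13 in IBA and 10.02, 10.71, 10.71, 10.78 and 10.79 in Ent. They were 10.70, 10.72, 10.74, 10.74 and 10.78 in EAr and 10.69, 10.78, 10.82, 10.82 and 10.88 in LAr. Apart from one IBA animal at 10.78, IBA lay above Ent, and K8 lay far below the other Ent animals. The Ent/IBA difference of -0.39 (SE 0.096, q = 0.0114) therefore includes a single low animal, and within experiment 2, which does not hold K8, it was -0.22 (n = 2 and 2). Wipi2, a partner in recruiting the conjugation machinery, was higher in IBA than in LAr by 0.30 (q = 0.00441). Atg14, Atg2a and Atg2b, the last a pair of lipid transfer proteins, had F test q of 0.418 to 0.759.

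**Figure D2:**
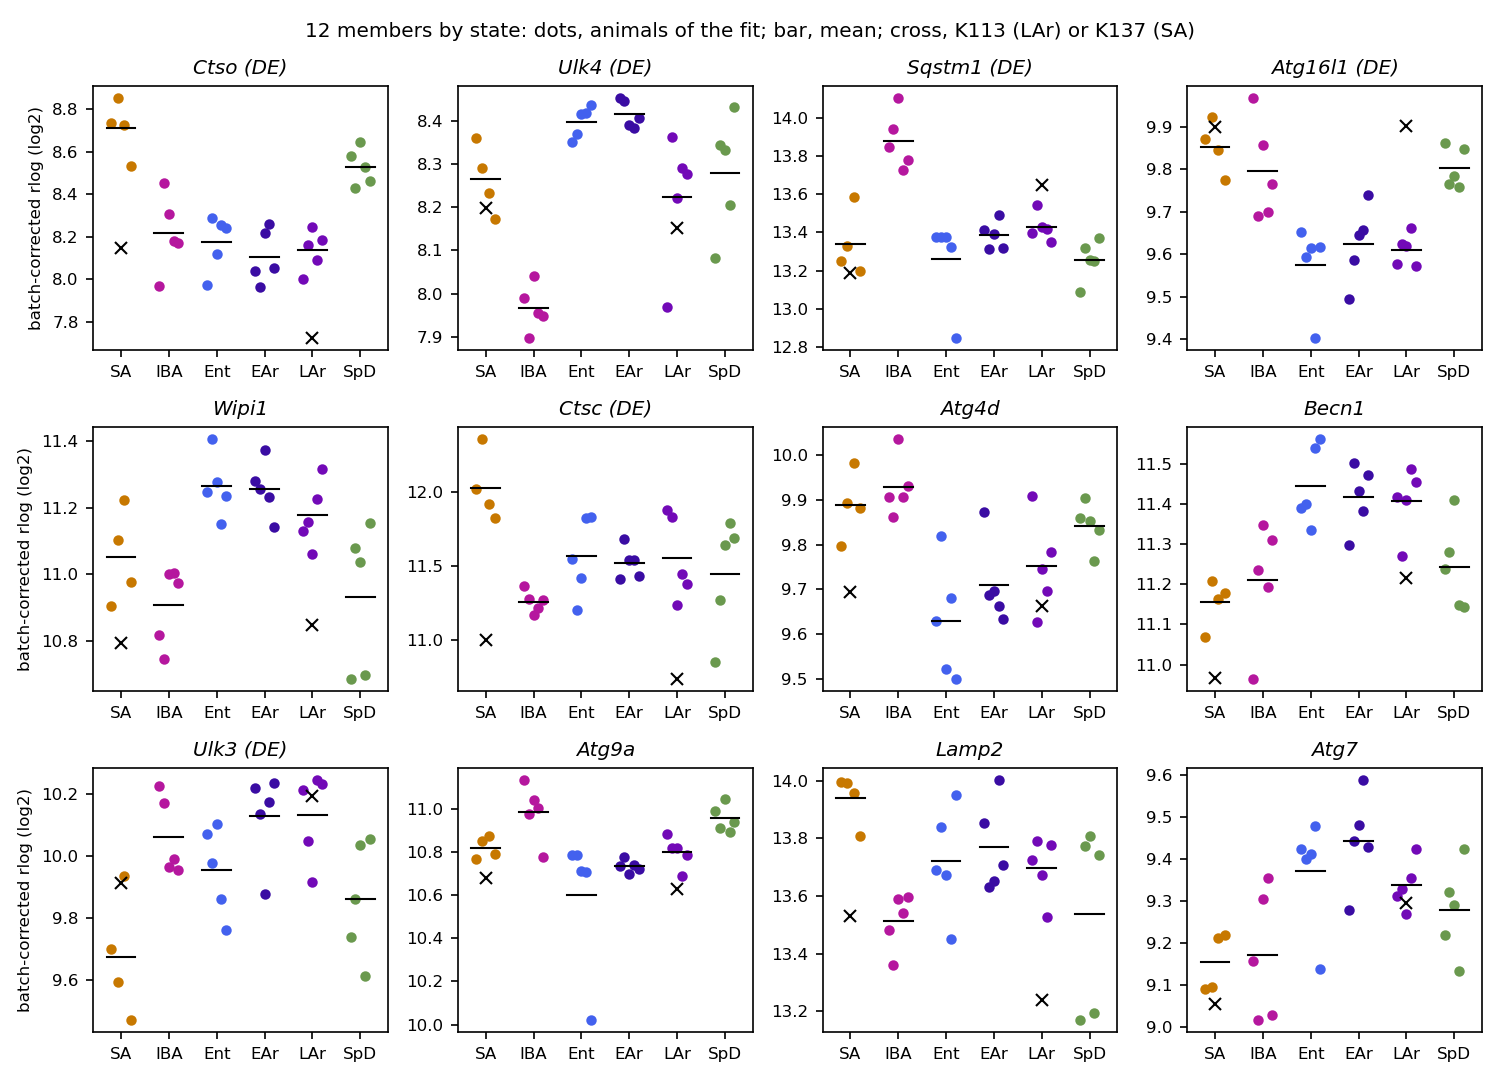
Batch-corrected rlog (log2; vertical axis, a separate scale per gene) of the 12 members of lowest F test p, by state, with one dot per animal of the fit, a bar at the mean and a cross for K113 or K137. DE after a symbol marks a q under 0.001 in the F test or in a contrast. The IBA dots of Sqstm1 stand between 13.73 and 14.10, above all other dots, and those of Ulk4 between 7.90 and 8.04.

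The conjugation genes held 1 DE member, Atg16l1, and 2 further members that are among the 12 of lowest F test p, Atg4d and Atg7. Atg16l1 (gene9676) encodes the protein that directs the ligase to the membrane. Its values were 9.77, 9.85, 9.87 and 9.92 in SA and 9.76, 9.76, 9.78, 9.85 and 9.86 in SpD. They were 9.69, 9.70, 9.77, 9.86 and 9.97 in IBA and 9.40, 9.59, 9.61, 9.62 and 9.65 in Ent. They were 9.50, 9.59, 9.64, 9.66 and 9.74 in EAr and 9.57, 9.58, 9.62, 9.62 and 9.66 in LAr. Each animal of Ent, EAr and LAr was below each active animal, whereas IBA animals reached across the active range. Atg16l1 fell by 0.18 in the winter/active contrast (SE 0.037, q = 0.000755), a call lost in 23 of 29 fits without one animal (q up to 0.00339). The call was also lost with all 31 animals, in experiment 2 alone and with median centring (q up to 0.0045). The Ent/IBA difference was -0.22 (q = 0.0151).

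Atg4d encodes a protease that trims and releases ATG8 proteins. Its values were 9.80, 9.88, 9.89 and 9.98 in SA and 9.76, 9.83, 9.85, 9.86 and 9.90 in SpD. They were 9.86, 9.90, 9.91, 9.93 and 10.03 in IBA and 9.50, 9.52, 9.63, 9.68 and 9.82 in Ent. They were 9.63, 9.66, 9.69, 9.70 and 9.87 in EAr and 9.63, 9.70, 9.75, 9.78 and 9.91 in LAr. IBA and Ent did not overlap, and the Ent/IBA difference was -0.30 (SE 0.063, q = 0.00394). The winter/active difference was -0.11 (q = 0.0362). Its relatives had differences of either sign. The Ent/IBA difference was 0.40 for Atg4c (q = 0.0133) and -0.28 for Atg4b (q = 0.0267). Both include K8, which stood apart from the other Ent animals. Atg4c was 9.93 in K8, beside 9.36 to 9.64, and Atg4b was 10.32, beside 10.77 to 11.03. The IBA/SA difference of Atg4a was -0.36 (q = 0.00993).

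Atg7 encodes the activating enzyme of both conjugation systems. Its values were 9.09, 9.10, 9.21 and 9.22 in SA and 9.13, 9.22, 9.29, 9.32 and 9.42 in SpD. They were 9.01, 9.03, 9.16, 9.30 and 9.35 in IBA and 9.14, 9.40, 9.41, 9.42 and 9.48 in Ent. They were 9.28, 9.43, 9.44, 9.48 and 9.59 in EAr and 9.27, 9.31, 9.33, 9.35 and 9.42 in LAr. Every EAr and LAr animal was above every SA animal, but no contrast compared EAr or LAr directly with SA. None of the contrasts that were tested reached q under 0.05 for Atg7, and the F test gave q = 0.0164. Atg3, Atg5, Atg10 and Atg12, the other members of the conjugation systems, had F test q of 0.0652 to 0.165.

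The ATG8 genes themselves were the most even part of the list. Map1lc3a had state means from 11.24 in Ent to 11.39 in SpD, and Gabarap from 13.13 in IBA to 13.24 in Ent. Gabarapl1 ran from 13.30 in EAr to 13.39 in LAr, and Gabarapl2 from 11.33 in EAr to 11.48 in SA. Their F test q were 0.372 for Map1lc3a, 0.649 for Gabarap, 0.828 for Gabarapl1 and 0.463 for Gabarapl2. Differences of a size seen in Sqstm1 were not detected in any of them.

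By size, Sqstm1 (gene21788 in the table), the receptor gene, carried the largest DE change of the torpor-arousal cycle in the list. Its values were 13.20, 13.25, 13.33 and 13.59 in SA and 13.09, 13.25, 13.26, 13.32 and 13.37 in SpD. They were 13.73, 13.78, 13.85, 13.94 and 14.10 in IBA and 12.85, 13.32, 13.38, 13.38 and 13.38 in Ent. They were 13.31, 13.32, 13.39, 13.41 and 13.49 in EAr and 13.35, 13.40, 13.42, 13.43 and 13.54 in LAr. The lowest IBA animal was above the highest animal of every other state, and the 5 other states overlapped one another. The IBA mean was 13.88 ± 0.15 (SD, n = 5), beside 13.43 ± 0.07 (n = 5) in LAr and 13.26 ± 0.23 (n = 5) in Ent.

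Sqstm1 differed across states at q = 0.000108. It was higher in IBA than in SA by 0.60 (SE 0.109, 95% interval 0.37 to 0.82, q = 0.000533). It fell by 0.62 from IBA to Ent (SE 0.093, q = 0.000276) and fell by 0.62 from IBA to SpD (SE 0.093, q = 0.000169). The Ent/IBA difference includes K8 at 12.85, beside 13.32 to 13.38 in the other Ent animals. Over the fits that left out one animal, it was -0.66 to -0.52. The IBA/LAr difference was 0.51 (SE 0.104), and with q = 0.00222 it was not DE. The LAr/EAr difference, earlier in rewarming, was 0.05 (q = 0.946). The winter/active difference of 0.19 (q = 0.016) averages one high state with others that overlap SA and SpD. Within experiment 1, which holds K8, the Ent minus IBA difference was -0.60 (n = 3 and 3). Within experiment 2, which does not, it was -0.64 (n = 2 and 2). The IBA/SA call was lost when K104, K138, K139, K141 or K171 was left out, with q up to 0.00306 and a difference that stayed between 0.52 and 0.68. The Ent/IBA call was lost without K1 (q = 0.00123). In experiment 2 alone the Ent/IBA and SpD/IBA differences were -0.65 (q = 0.0247) and -0.85 (q = 0.0018).

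Both transcription factor genes had their highest mean in IBA, but neither differed between IBA and LAr at q under 0.05. Tfe3 had a mean of 10.78 ± 0.06 (SD, n = 5) in IBA, where it ranged from 10.72 to 10.87, and 10.55 ± 0.05 (n = 4) in SA, where it ranged from 10.49 to 10.60. The IBA/SA difference was 0.23 (q = 0.0142) and the Ent/IBA difference was -0.20 (q = 0.0205). The latter includes K8 at 10.30, beside 10.56 to 10.72 in the other Ent animals. Tfeb had 10.08 ± 0.22 (n = 5) in IBA and 9.79 ± 0.11 (n = 4) in SA, with ranges that overlapped and a difference of 0.34 (q = 0.0271). Its LAr mean of 10.04 ± 0.05 (n = 5) was close to that of IBA. The IBA/LAr difference was 0.11 (q = 0.225) for Tfe3 and 0.098 (q = 0.534) for Tfeb. Neither gene was DE.

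Lamp2, which encodes a major lysosomal membrane protein needed for chaperone-mediated autophagy, was highest in SA. Its values were 13.81, 13.96, 13.99 and 13.997 in SA and 13.17, 13.19, 13.74, 13.77 and 13.81 in SpD. They were 13.36, 13.48, 13.54, 13.59 and 13.60 in IBA and 13.45, 13.67, 13.69, 13.84 and 13.95 in Ent. They were 13.63, 13.65, 13.71, 13.85 and 14.003 in EAr and 13.53, 13.67, 13.73, 13.78 and 13.79 in LAr. All IBA animals were below all SA animals, and in SpD 2 animals lay far below the other 3. The IBA/SA difference was -0.54 (SE 0.128, q = 0.00422) and the SA/SpD difference was 0.52 (q = 0.0155). The 2 low SpD animals, K130 and K84, were from experiment 2. They also had the lowest proximal tubule marker means of SpD, 14.04 and 14.90, and the part of these markers in the Lamp2 values was not tested. Lamp1, its close relative, ranged from a state mean of 15.05 in IBA to 15.26 in SA, with an F test q of 0.20.

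The 10 cathepsin genes held the widest spreads of state means, and their profiles were of several kinds. Cathepsin B is not among the 10, since no row carries its plain symbol, and it was not analysed here. Ctso (gene13802) was lower in all 4 hibernation states. Its values were 8.53, 8.72, 8.73 and 8.85 in SA and 8.43, 8.46, 8.53, 8.58 and 8.65 in SpD. They were 7.97, 8.17, 8.18, 8.31 and 8.45 in IBA and 7.97, 8.12, 8.24, 8.25 and 8.29 in Ent. They were 7.96, 8.04, 8.05, 8.22 and 8.26 in EAr and 8.0002, 8.09, 8.16, 8.18 and 8.24 in LAr. All hibernating animals were below all active ones, except for one IBA animal, K104, at 8.45, which reached the lower end of SpD. The 4 hibernation means stood between 8.11 and 8.21, SpD was at 8.53 ± 0.09 (SD, n = 5) and SA at 8.71 ± 0.13 (n = 4).

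The winter/active difference of Ctso was -0.46 (SE 0.053, 95% interval -0.57 to -0.35, q = 1.2e-06), and the F test gave q = 2.91e-05. The winter/active call held in all 9 other model settings and in all 29 fits without one animal, with a largest q of 0.000116, in experiment 2 alone. In the winter/active contrast at q under 0.05, 16.8% of all genes were lower and 16.6% higher in hibernation. Of 21 cell type markers tested in it, 8 were lower and 0 higher at that threshold. They were Slc34a1 (-0.85, q = 0.00163) of proximal tubule, Aqp2 (-0.70, q = 0.0052) of principal cells, Atp6v0d2 (-0.34, q = 0.00136) of intercalated cells, Umod (-0.55, q = 0.0281) of the loop of Henle, Col1a1 (-0.64, q = 0.0191) of fibroblasts, Csf1r (-0.46, q = 0.0163) of macrophages, and Kdr (-0.42, q = 0.0118) and Nrp1 (-0.31, q = 0.0205) of endothelium. The other 3 proximal tubule markers had differences of -0.29 to 0.07. Further markers of the same cell types also had q over 0.05. They were Hsd11b2 (0.11) of principal cells, Atp6v1g3 (-0.11) of intercalated cells and Slc12a1 (-0.53, q = 0.0508) of the loop of Henle. For macrophages they were C1qa (0.05) and C1qb (-0.07), and for fibroblasts Pdgfrb (-0.14), S100a4 (-0.08) and Plac8 (-0.02). The part of these cell types in the winter/active differences of Ctso and of the other genes was not tested. The F test call was lost only in all 31 animals (q = 0.00123). Within hibernation no contrast of Ctso reached q under 0.05. SpD was higher than IBA by 0.31 (q = 0.0158). Within experiment 1 that difference was 0.41 (n = 3 and 3) and within experiment 2 it was 0.17 (n = 2 and 2).

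Ctsc (gene21661) encodes a dipeptidyl peptidase that activates serine proteases of immune cell granules. Its values were 11.82, 11.92, 12.02 and 12.36 in SA and 10.85, 11.27, 11.64, 11.69 and 11.79 in SpD. They were 11.17, 11.21, 11.27, 11.28 and 11.36 in IBA and 11.20, 11.42, 11.55, 11.82 and 11.83 in Ent. They were 11.41, 11.43, 11.54, 11.54 and 11.68 in EAr and 11.24, 11.38, 11.44, 11.83 and 11.88 in LAr. SA was high and IBA was low and tightly grouped, with no overlap between them. The state means were 12.03 in SA and 11.26 in IBA. In the model with sex and experiment, Ctsc fell by 0.92 from SA to IBA (SE 0.156, q = 0.000256), and its SA/SpD difference was 0.73 (q = 0.00822).

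Proximal tubule markers were also lower in IBA. Their mean over 4 genes was 15.38 to 15.76 in SA and 14.38 to 15.16 in IBA, again without overlap, and their IBA/SA differences ran from -0.46 (Lrp2, q = 0.298) to -1.59 (Slc34a1, q = 0.00278). The macrophage markers C1qa, C1qb and Csf1r had a mean of 8.15 to 8.63 in SA and 8.01 to 9.204 in IBA. The B cell marker Cd79a, the only leukocyte marker used, was 9.68 to 10.41 in SA and 8.84 to 9.63 in IBA, without overlap. Its IBA/SA difference was -0.96 (q = 0.0408) and its SA/SpD difference was 0.83 (q = 0.105), each in the direction of Ctsc. The part of these cell types in the Ctsc differences was not tested, and in whole kidney fewer cells of a type cannot be told apart from less RNA per cell. The Ctsc call was lost in all 31 animals (-0.69, q = 0.0436), with animal weights (q = 0.00122), in experiment 2 alone (-0.93, q = 0.00608) and without K104, K138 or K139 (q up to 0.00183).

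Ctsv, whose symbol stands for a cathepsin of the cathepsin L group (whether its row is the ortholog of cathepsin L itself was not checked), had the widest spread of state means in the list, at 1.06. Its values were 14.70, 15.05, 15.29 and 15.96 in SA and 13.22, 13.84, 14.44, 14.68 and 14.74 in SpD. The other states had means of 14.33 to 14.52. The IBA/SA difference of Ctsv was -1.05 (SE 0.291, q = 0.0122) and its SA/SpD difference was 1.22 (q = 0.0134), so neither was DE. The proximal tubule markers given above differed between SA and IBA in the same direction, and their part in this was not tested.

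The remaining cathepsins included Ctsd, Ctsh and Ctsf with higher values in hibernation, none of them DE. Ctsd, the aspartic protease of lysosomes, had 13.84 ± 0.07 (SD, n = 4) in SA, 13.92 ± 0.22 (n = 5) in SpD and 14.14 to 14.26 as the means of the hibernation states. Its winter/active difference was 0.32 (q = 0.005). Ctsh, an aminopeptidase, ran from 12.84 ± 0.34 (n = 5) in SpD to 13.53 ± 0.21 (n = 5) in Ent, with a winter/active difference of 0.43 (q = 0.00605). Ctsf was higher in hibernation by 0.20 (q = 0.0114). Ctsk, known from bone resorption, was higher in IBA than in SA by 0.37 (q = 0.0295). Ctss, known from antigen-presenting cells, varied most within IBA, from 6.74 to 8.63. The highest value was that of K7, whose macrophage marker mean of 9.204 was also the highest of all animals. Ctss, Ctsa and Ctsz had F test q of 0.116 to 0.64.

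Read by comparison, the members divided between the directions. In the winter/active contrast 1 member was DE and higher (Ulk3), beside 4.43% of all genes, and 2 were DE and lower (Ctso and Atg16l1), beside 5.29%. The counts at q under 0.05 were 7 higher (Becn1, Ctsd, Ctsf, Ctsh, Sqstm1, Ulk3 and Wipi1), beside 16.6% of all genes, and 5 lower (Atg16l1, Atg4a, Atg4d, Ctsc and Ctso), beside 16.8%. The share at q under 0.05 was 28.6% of members in both directions together, beside 33.4% of all genes. Of all 42 members, 21 had a positive difference and 21 a negative one, with a median of 0.0044 beside 0.00024 over all genes.

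From SA to IBA, 2 members were DE, Sqstm1 up and Ctsc down (4.76%), beside 3.15% of all genes. At q under 0.05, 6 members were higher in IBA (Atg13, Ctsk, Sqstm1, Tfe3, Tfeb and Ulk3), beside 10.4% of all genes, and 7 were lower (Atg4a, Atg4c, Ctsc, Ctso, Ctsv, Lamp2 and Ulk4), beside 12.5%. The higher members were Ulk3, the ULK partner Atg13, the receptor, both factors and the cathepsin Ctsk. The lower ones were ATG4 proteases, lysosomal genes and Ulk4. The median difference of the 42 was 0.054, beside 0.029 over all genes.

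**Figure D3:**
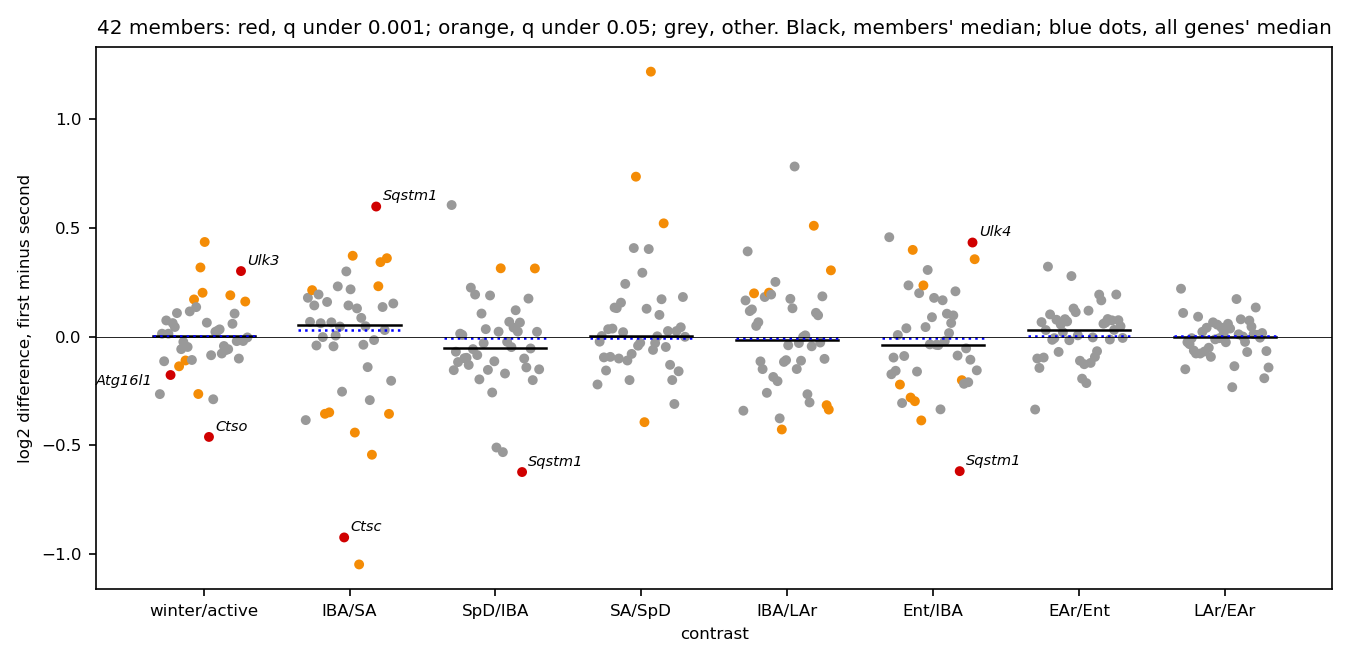
Each dot is 1 of the 42 members, and the vertical axis gives its log2 difference (first state minus second) in each of 8 contrasts, with red for q under 0.001, orange for q under 0.05 and grey for the rest. Black bars are the members' medians and dotted blue bars those of all 12863 genes, and the named red dots number 8 in all, with none in SA/SpD, IBA/LAr, EAr/Ent or LAr/EAr.

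From IBA to Ent, Sqstm1 fell and Ulk4 rose, 2 of 42 members (4.76%), beside 0.746% of all genes. At q under 0.05, 4 members were higher in Ent (Atg4c, Becn1, Ulk4 and Wipi1), beside 5.52% of all genes, and 6 were lower (Atg16l1, Atg4b, Atg4d, Atg9a, Sqstm1 and Tfe3), beside 7.61%. Together this was 23.8% of members, beside 13.1% of all genes. From IBA to SpD, Sqstm1 fell (1 member, 2.38%), beside 1.25% of all genes. At q under 0.05, Ctso and Ulk4 were higher in SpD (2 members), beside 6.48%, and Sqstm1 was lower (1 member), beside 5.42%. Both contrasts share the IBA animals with IBA/SA and IBA/LAr.

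From LAr to IBA no member was DE by limma, beside 1.43% of all genes, although 18 of 42 (42.9%) had an unadjusted p under 0.05, beside 4299 of 12863 genes (33.4%). At q under 0.05, 4 were higher in IBA (Atg16l1, Atg4d, Sqstm1 and Wipi2), beside 9.93%, and 3 were lower (Ctsc, Ulk4 and Wipi1), beside 8.03%. Between SA and SpD, the active states, no member was DE, beside 0.0544% of all genes, and 7 members (16.7%) had an unadjusted p under 0.05, beside 3741 of 12863 genes (29.1%). At q under 0.05, 3 were higher in SA (Ctsc, Ctsv and Lamp2), beside 5.47%, and 1 was lower (Ctsk, -0.39, q = 0.0409), beside 5.01%. All 4 are lysosomal genes.

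Across the torpor bout itself few differences were seen. From Ent to EAr, limma called none of them at q under 0.001, beside 0.132% of all genes, none at q under 0.05, beside 0.257%, and none had an unadjusted p under 0.05, beside 921 of 12863 genes. Their differences ran from -0.34 (Atg10) to 0.32 (Atg2a), and the lowest q of any member was 0.732. From EAr to LAr, limma called none at q under 0.001, beside 0.295% of all genes, and none at q under 0.05, beside 0.575%, with 2 members (4.76%) at an unadjusted p under 0.05, beside 1071 of 12863 genes (8.33%). Differences ran from -0.23 (Ctss) to 0.22 (Atg10), and the lowest q was 0.324, that of Ulk4 (-0.19).

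K113 and K137, kept out of the fit, had many members outside the range of their groups, as they did for genes at large. K113 was above the 5 other LAr animals for 12 members and below them for 16, which is 28.6% and 38.1%, beside 35.6% and 37.2% of all genes. K137 was above the 4 other SA animals for 13 members and below them for 15, or 31% and 35.7%, beside 33.9% and 29.5%. K130, an SpD animal that stayed in the fit, had 12 above and 14 below, or 28.6% and 33.3%, beside 32.7% and 28.4%. In all 3 animals Atg4c, Ctsa, Ctsc, Lamp1, Lamp2 and Wipi1 were below their groups (6 members, 14.3%, beside 13.3% of all genes), and Atg101, Atg13, Ctsk and Wipi2 were above (4 members, 9.52%, beside 14%).

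The largest deviations in these animals were again in the cathepsins. Ctss was 8.12 in K113, 1.28 above the mean of the other LAr animals, and 8.36 in K137, 0.86 above the mean of the other SA animals. Ctsc was 10.73 in K113, a difference of -0.82, and 11.00 in K137, a difference of -1.03. Ctsv was 14.02 in K137, a difference of -1.23, and 14.36 in K113, among the other LAr animals. Ctso was 7.72 in K113 and 8.15 in K137, each below every other animal of its group. The proximal tubule marker mean was 14.16 in K113 and 14.55 in K137, below all others of their groups, and 14.04 in K130. The macrophage marker mean was 7.55 in K113 and 8.54 in K137, so the high Ctss of K113 stood beside macrophage markers lower than in the rest of LAr. The fibroblast marker mean was 9.41 in K113, beside 8.43 to 8.91 in the rest of LAr, and 9.96 in K137, beside 8.70 to 9.50 in the rest of SA. The principal cell marker mean was 14.06 in K113 and 14.29 in K137, also above all others of their groups. The part of these cell types in the deviations was not tested.

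**Figure D4:**
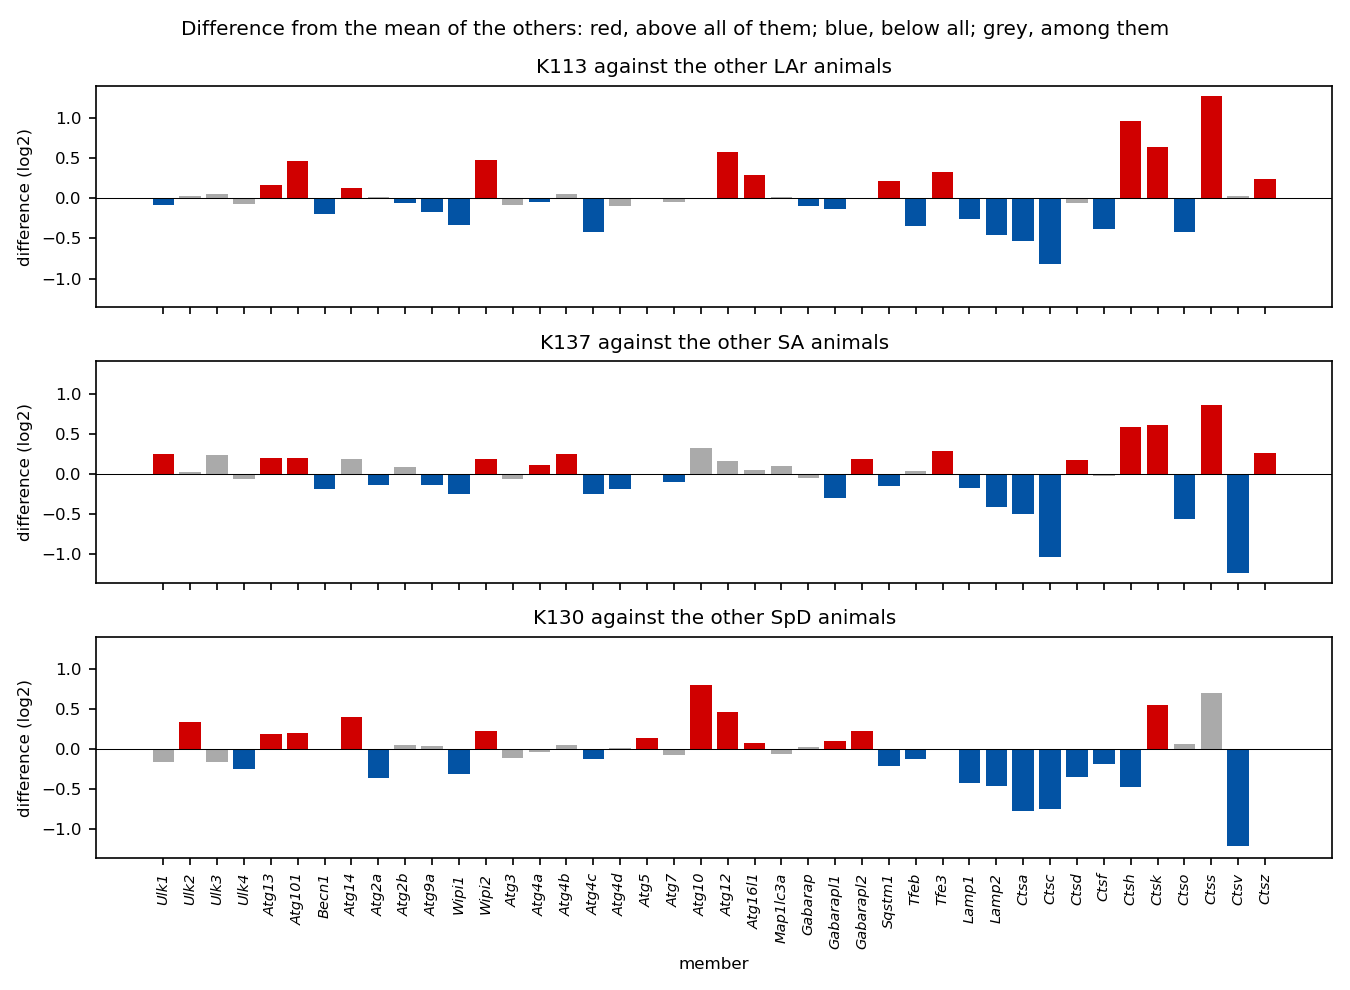
Bars give, for each member, the value in K113, K137 or K130 minus the mean of the other animals of its state (log2; 5 others for K113, 4 for the rest), red where it lies above all of them, blue below all and grey among them. Ctsc is blue in all 3 and Ctss is red in K113 and K137.

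A wider list of autophagy and lysosome genes with other symbols, written from general knowledge, gives the setting of the members. Of its 148 genes, 139 were measured. The F test called 9 of them DE and counted 58 at q under 0.05, beside the background shares of 9.34% and 46.1% given above. In the winter/active contrast 9 were DE and higher (6.47%, beside 4.43% of all genes) and 4 were DE and lower (2.88%, beside 5.29%), with a median of 0.017. The 8 of lowest F test p follow, each with its winter/active difference.

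Cd63, a tetraspanin of lysosomes and endosomes, rose in hibernation by 0.63 (SE 0.061, q = 1.36e-07). It ranged from 11.05 to 11.39 in SA and 11.09 to 11.48 in SpD, and from 11.61 to 12.27 in the hibernation states, so no hibernating animal overlapped an active one. Pink1, the kinase that flags damaged mitochondria for autophagy, fell by 0.35 (SE 0.035, q = 2.19e-07), with 12.16 to 12.52 in the active animals and 11.83 to 12.19 in hibernation. Ddit4, an inhibitor of the nutrient-sensing mTORC1 kinase, fell by 0.66 (SE 0.079, q = 2.02e-06). It was lowest in EAr, at 8.89 ± 0.17 (SD, n = 5), beside a range of 9.87 to 10.21 (n = 4) in SA.

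SLC17A5, the lysosomal sialic acid exporter, fell by 0.40 (SE 0.049, q = 1.86e-06), with SA at 9.53 ± 0.17 (SD, n = 4) and IBA at 8.92 ± 0.05 (n = 5). Gga3, an adaptor that sorts hydrolase receptors at the Golgi, fell by 0.25 (SE 0.045, q = 0.00018). Its IBA mean of 10.52 lay beside those of SA (10.45) and SpD (10.53). The low means were those of Ent (10.08), EAr (10.22) and LAr (10.11), and Gga3 fell by 0.44 from IBA to Ent (q = 0.000508). Gnptab and Gnptg, the subunit genes of the enzyme that tags hydrolases with mannose 6-phosphate, rose by 0.40 (SE 0.060, q = 2.45e-05) and 0.37 (SE 0.057, q = 3.3e-05). Asah1, the acid ceramidase, rose by 0.38 (SE 0.044, q = 1.27e-06), from 10.95 ± 0.25 (n = 5) in SpD and 11.17 ± 0.10 (n = 4) in SA to means of 11.31 to 11.52 in hibernation.

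Among the hydrolases other than cathepsins, 34 were measured, and 5 rose in hibernation (14.7%, beside 4.43% of all genes) while none fell (beside 5.29%). With q under 0.05, 8 of 34 were higher (23.5%, beside 16.6%) and 4 were lower (11.8%, beside 16.8%). Besides Asah1, these were named after their values were seen. Sgsh rose by 0.52 (q = 9.51e-05) and Gusb by 0.50 (q = 8.46e-05), and both calls held in the 9 other settings and without any single animal. Hexa rose by 0.28 (q = 0.00057) and Galc by 0.28 (q = 0.00052). The products of these 4 genes act on glycosaminoglycans and glycolipids. The call of Galc was lost in 3 of 9 other settings and in 6 of 29 fits without one animal, and that of Hexa in 1 and 5. The median winter/active difference over the 34 hydrolases was 0.057. Of 25 measured autophagy genes with other symbols, none was DE in this contrast. Counted at q under 0.05, 4 were higher (16%, beside 16.6% of all genes) and 1 was lower (4%, beside 16.8%).

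**Figure D5:**
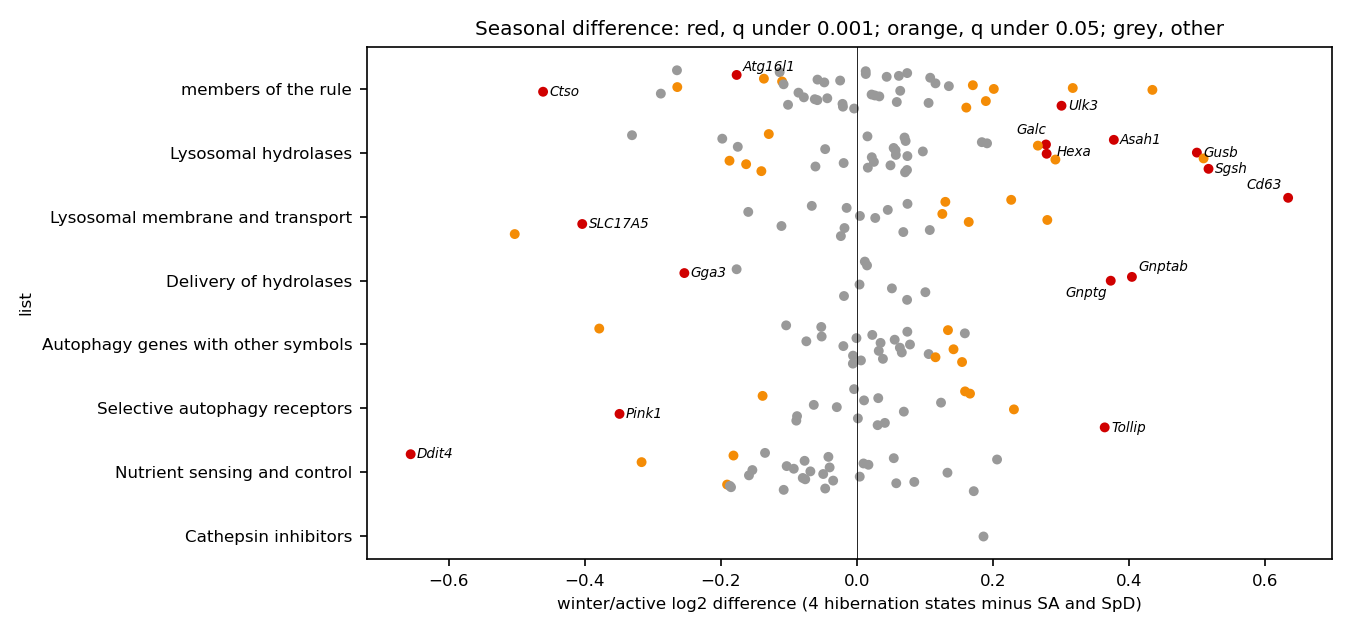
The horizontal axis gives the winter/active log2 difference and each dot is a gene, with the 42 members in the top row and the lists of related genes below, red for q under 0.001, orange for q under 0.05 and grey for the rest. The 5 red hydrolases lie to the right of 0, from Galc at 0.28 to Sgsh at 0.52, and Cd63 is farthest right, at 0.63.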

How the data were processed

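The deposited table holds batch-corrected rlog values on the log2 scale for 31 kidneys. Per the labels and the study's methods, the authors trimmed adaptors (cutadapt), filtered out mitochondrial reads (HISAT2), assigned the rest to HiC_Itri_2 transcripts (Salmon), kept genes above an rlog minimum, transformed them (DESeq2) and took out the experiment effect (limma). Libraries were strand-specific. Counts and depth are not recoverable, so the authors' DESeq2 test was not repeated.

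State, sex and experiment were terms of a limma 3.58.1 model (R 4.3.3) over all 12863 genes, with an intensity trend, for the F test and 8 contrasts. The script was tested on simulated data. Members and lists were chosen with earlier results of these data known. Members with q under 0.001 in any test, plus the next by F test p up to 12, were described in full, and other members are named for their place in a list or their range. Of related genes, the 8 of lowest F test p were named, and 1 listed gene was left out and is not reported here. Within-experiment differences are plain differences of means. Plots came from matplotlib 3.10.9 under Python 3.11.15. No sequences or coordinates are printed, since no genome of the authors' build was used here.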

Additional observations from a re-analysis of the deposited data

Results flagged for a closer look

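For the 12 members described in full, each state was searched for an animal whose gap to the nearest other took up more of the group's range than Dixon's 95% critical value (0.71 for 5 animals). Of 72 groups, 6 were found, from 4 animals, and chance flags about 1 in 20 groups. 3 of the 6 were K8 in Ent. Sqstm1 was 12.85 in K8, beside 13.32 to 13.38 in the other Ent animals. Atg9a was 10.02 in K8, beside 10.71 to 10.79. Atg7 was 9.14 in K8, beside 9.40 to 9.48. K8 also had the lowest proximal tubule marker mean of Ent, 14.62. It was lowest of Ent too for markers of distal convoluted tubule (13.08), endothelium (10.22) and principal cells (13.11) and for Cd79a (9.05). It was highest of Ent for intercalated cells (11.14) and lay among the others for loop of Henle, macrophages and fibroblasts. The part of these cell types in its values was not tested. The other 3 were single genes. Atg16l1 was 9.40 in K5 (Ent), beside 9.59 to 9.65. Atg4d was 9.87 in K154 (EAr), beside 9.63 to 9.70. Ulk3 was 9.88 in K157 (EAr), beside 10.13 to 10.23.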

How the results depend on the processing

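No DE difference of a member changed direction in any setting tried. Differences of members that were not DE were not followed in this way. Some of them differed in sign between the experiments, such as the SpD minus IBA difference of Lamp2, 0.24 in experiment 1 and -0.30 in experiment 2. With q under 0.05 in place of 0.001 the members called were 18 across the 6 states, 12 in winter/active, 4 in SA/SpD, 13 in IBA/SA, 10 in Ent/IBA, 7 in IBA/LAr and 3 in SpD/IBA, and 58 related genes were called across states. With animal weights the counts were 8 across states (3 in the fit reported), 1 in IBA/SA (2 reported), 5 in Ent/IBA (2), 1 in IBA/LAr (0), 2 in SpD/IBA (1) and 20 related genes (9). Of all genes, 18.9% (9.34% reported), 3.68% (3.15%), 6.77% (0.746%), 5.62% (1.43%) and 3.23% (1.25%) were called in these 5 tests. In experiment 2 alone, with 20 animals, they were 6 across states, 5 in winter/active (3), 1 in SA/SpD (0), 1 in IBA/SA, 0 in Ent/IBA, 0 in SpD/IBA and 17 related genes, beside 9.22%, 9.62% (9.73% reported), 0.777% (0.0544%), 1.03%, 0 and 0 of all genes. With all 31 animals, winter/active and IBA/SA each had 1, beside 7.24% and 0.381% of all genes. No term for experiment or sex, no trend, a robust prior, median centring, a mean of at least 8 and the other Atg12 row kept every member count within 1.5 times. Leaving out each animal in turn gave 3 to 4 across states, 1 to 4 in winter/active, 0 to 3 in IBA/SA, 0 to 2 in Ent/IBA, 0 to 1 in IBA/LAr, 1 to 2 in SpD/IBA and 7 to 13 related genes. IBA/SA fell to 0 without K104, K138 or K139 and to 1 without K141 or K171. Ent/IBA fell to 0 without K1 and to 1 without K4 or K167. Winter/active fell to 1, Ctso, without any of 16 animals. SpD/IBA rose to 2 without K109 or K130, and IBA/LAr to 1 without K109, K130 or K8. The cause of these shifts was not tested. For the fits that left out an animal, shares of all genes called are not given. Shifts of the members there cannot be told apart from shifts over all genes. No paired analysis was possible because each animal was sampled once, at a single state. Depth is unknown, and SA rests on 4 animals.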
